A study of Mus musculus with 6 samples.

Results

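Transcripts of 10 genes that write, copy, erase or partner 2 repressive chromatin marks, DNA methylation and the Polycomb histone mark, were followed in 4T1 cells kept for 35 passages with or without perfluorooctane sulfonate (PFOS), a persistent fluorinated surfactant. The genes were listed by name (Dnmt1, Dnmt3a, Dnmt3b, Uhrf1, Tet1, Tet2, Tet3, Ezh2, Eed and Suz12), and all 10 were found among the 28418 genes in the deposited tables. 4T1 is a mouse mammary carcinoma line often used to model triple-negative tumours. RNA was compared between 3 libraries of cells at 100 nM PFOS and 3 libraries of cells at 0 nM PFOS, all labelled as the same line and as epithelial cells and grown over the same 35 passages. Whether the libraries within a group derive from different cultures is not stated. The p-values therefore speak to library-to-library spread, which may be technical. No vehicle is named for the cells at 0 nM.

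Methyl groups on cytosine in CpG pairs are placed on unmethylated DNA by DNMT3A and DNMT3B. They are copied to the new strand after replication by DNMT1, which UHRF1 recruits to hemimethylated sites. TET1, TET2 and TET3 oxidise the methyl group, a step towards its removal, and in Polycomb repressive complex 2 (PRC2) the methyltransferase EZH2 works together with EED, which binds the histone mark, and SUZ12, which holds the complex together. In tumour cells both systems are known for silencing lineage and germline genes, and EZH2, DNMT1 and UHRF1 are often abundant in dividing cells.

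No member passed the test at 100 nM PFOS. Of the 10 genes, 9 reached the mean of 1 FPKM needed to be tested (FPKM, a fragment count divided by the length of the transcript and the size of the library), and 0 of 9 had a Benjamini-Hochberg adjusted p under 0.05 in limma, against 4.15% of the 11741 genes tested (1.69% higher and 2.46% lower at 100 nM). At an unadjusted p under 0.05 there was 1 of 9, Suz12, against 20.7% of all tested genes. The 100 nM mean was higher for 5 of the 9 and lower for 4. Their median difference, 100 nM minus 0 nM, was 0.001 on the log2(FPKM + 1) scale, against 0.005 over all tested genes, and their median absolute difference was 0.018, against 0.060 over all tested genes. Groups did not overlap for 3 of the 9 (Dnmt3b, Tet3 and Suz12), against 26.9% of all tested genes. The members that were tested had passed a filter on their mean over all 6 libraries, and Tet1 was the only one below it.

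The promoters of the 10 genes were read from the RefSeq table of GRCm38.p6, which holds 15 start-site windows for them, each of 250 bases before and 50 bases after the start of a transcript. CpG pairs, the substrate of the DNA methyltransferases, were frequent there. Their number lay between 2 and 57 a window, and it was above the median of all 32851 windows, 7 pairs, in 14 of the 15. The window with 2 pairs was the most upstream of 3 for Dnmt1, and the window with 57 was that of Tet2. A search for the motif of the E2F factors, which drive genes of the cell division cycle, was made after the levels were known. It used the strings TTTGGCGC, TTTCGCGC, TTTCCCGC and TTTGCCGC on both strands, and 2.26% of all windows held at least 1 of them, as did 5.06% of the 3837 windows with at least 30 CpG pairs. Among the members, 4 windows of 4 genes held a match, those of Dnmt1, Uhrf1, Ezh2 and Suz12, which are also the 4 members with the highest transcript levels. These 4 are shown because they carry that overlap of motif and level. A match is only a run of letters, and no binding was measured. The sequences run 5′ to 3′ along the gene, with the matches in capitals. That of Dnmt1 is chr9:20952574-20952873 on the minus strand, that of Uhrf1 chr17:56304063-56304362 on the plus strand, that of Ezh2 chr6:47594981-47595280 on the minus strand and that of Suz12 chr11:79992856-79993155 on the plus strand, all in GRCm38.p6.
Dnmt1: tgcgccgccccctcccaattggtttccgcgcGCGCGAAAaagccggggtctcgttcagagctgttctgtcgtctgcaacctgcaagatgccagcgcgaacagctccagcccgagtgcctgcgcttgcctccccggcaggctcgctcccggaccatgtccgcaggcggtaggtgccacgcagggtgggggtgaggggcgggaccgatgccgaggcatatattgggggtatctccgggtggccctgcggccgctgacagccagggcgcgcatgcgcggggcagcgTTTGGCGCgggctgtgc
Uhrf1: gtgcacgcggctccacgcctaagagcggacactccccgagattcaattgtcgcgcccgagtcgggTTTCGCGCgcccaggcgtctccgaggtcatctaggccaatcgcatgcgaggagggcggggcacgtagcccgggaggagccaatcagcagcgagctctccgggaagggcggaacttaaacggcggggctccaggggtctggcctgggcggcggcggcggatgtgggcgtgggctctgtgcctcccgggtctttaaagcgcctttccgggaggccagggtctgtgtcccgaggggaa
Ezh2: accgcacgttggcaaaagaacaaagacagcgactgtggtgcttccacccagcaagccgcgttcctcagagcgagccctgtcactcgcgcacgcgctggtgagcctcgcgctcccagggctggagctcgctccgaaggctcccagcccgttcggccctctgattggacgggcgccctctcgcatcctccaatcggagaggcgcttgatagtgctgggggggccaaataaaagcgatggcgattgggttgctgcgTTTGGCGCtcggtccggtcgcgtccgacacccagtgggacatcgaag
Suz12: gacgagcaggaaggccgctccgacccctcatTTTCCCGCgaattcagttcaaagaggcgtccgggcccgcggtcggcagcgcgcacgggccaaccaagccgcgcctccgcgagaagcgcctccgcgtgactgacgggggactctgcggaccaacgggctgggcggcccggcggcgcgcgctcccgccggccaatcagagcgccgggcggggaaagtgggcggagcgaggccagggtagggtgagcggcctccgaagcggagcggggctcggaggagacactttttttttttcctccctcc

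**Figure D1:**
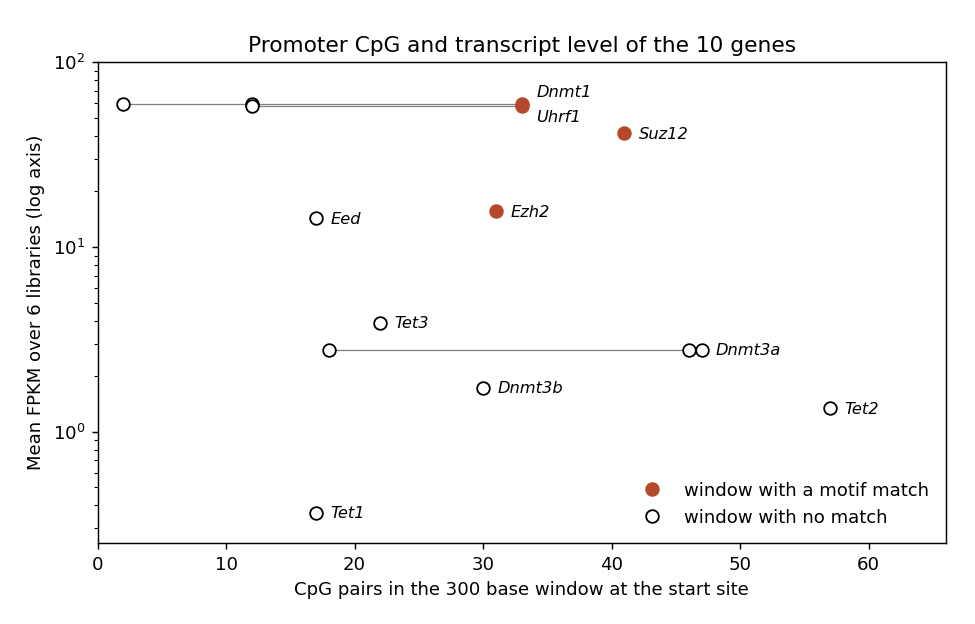
CpG pairs in the 300 base window at each RefSeq start site (horizontal axis) against the mean FPKM over the 6 libraries (vertical log axis) for the 10 genes. Each circle is 1 of 15 windows, filled where it holds a match to the E2F motif strings, and a grey line joins windows of 1 gene. The 4 filled windows belong to Dnmt1, Uhrf1, Suz12 and Ezh2, and Tet2 has the most CpG pairs, 57, with a mean near 1 FPKM.

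The maintenance genes stood highest. Dnmt1 (ENSMUSG00000004099, chromosome 9, 20907209 to 20952979, minus strand) had 59.91, 59.49 and 59.38 FPKM at 100 nM PFOS, against 59.22, 58.91 and 60.49 FPKM at 0 nM. The 6 values interleaved, and their coefficient of variation of 0.938% was smaller than that of 99.7% of all tested genes. The difference was 0.00 on the log2(FPKM + 1) scale, with a 95% interval of -0.05 to 0.05 (limma adjusted p = 0.98).

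Uhrf1 (ENSMUSG00000001228, chromosome 17, 56303321 to 56323486, plus strand) had 59.18, 60.51 and 55.37 FPKM at 100 nM PFOS, against 58.35, 58.25 and 58.50 FPKM at 0 nM. Both the highest and the lowest library were at 100 nM, and the groups overlapped. Its difference was 0.00, with a 95% interval of -0.08 to 0.08 (limma adjusted p = 0.989). The level of Uhrf1 divided by that of Dnmt1 lay between 0.932 and 1.02 at 100 nM and between 0.967 and 0.989 at 0 nM. Of the 31-base words of its transcripts, 24.2% also occur in transcripts of other genes, and the gene sharing more of them than any other is the pseudogene Gm5648. Gm5648 stood at 0.71 to 0.73 FPKM at 100 nM and at 0.39 to 0.57 FPKM at 0 nM, so some reads may be split between the copies.

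The genes for de novo methylation were far lower. Dnmt3a (ENSMUSG00000020661, chromosome 12, 3806007 to 3914443, plus strand) had 2.74, 2.90 and 2.77 FPKM at 100 nM PFOS, against 2.70, 2.88 and 2.70 FPKM at 0 nM, with a difference of 0.02 and a 95% interval of -0.09 to 0.13 (limma adjusted p = 0.875). The groups overlapped almost fully.

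Dnmt3b (ENSMUSG00000027478, chromosome 2, 153649450 to 153687730, plus strand) had 1.72, 2.14 and 1.72 FPKM at 100 nM PFOS, against 1.60, 1.66 and 1.58 FPKM at 0 nM. The groups did not overlap, and replicate 2 at 100 nM stood above the other 5 libraries. The mean was 1.86 ± 0.242 FPKM at 100 nM and 1.61 ± 0.0416 FPKM at 0 nM (SD, n = 3 each), 15.3% higher at 100 nM, the largest ratio of means among the tested members. Because adding 1 shrinks differences between low values, the difference on the log2(FPKM + 1) scale was 0.13, with a 95% interval of -0.05 to 0.30 (limma adjusted p = 0.391). Without replicate 2 at 100 nM it came to 0.06 (limma adjusted p = 0.684). Dnmt3b shares 13.5% of its words with other genes, and more with its copy Dnmt3c than with any other gene. Dnmt3c stood at 0 to 0.06 FPKM at 100 nM and at 0.05 to 0.08 FPKM at 0 nM. As levels per length, Dnmt1 exceeded the sum of Dnmt3a and Dnmt3b by 11.8 to 13.4 times at 100 nM and by 13 to 14.1 times at 0 nM, and Dnmt3b divided by Dnmt3a was 0.621 to 0.738 at 100 nM and 0.576 to 0.593 at 0 nM.

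**Figure D2:**
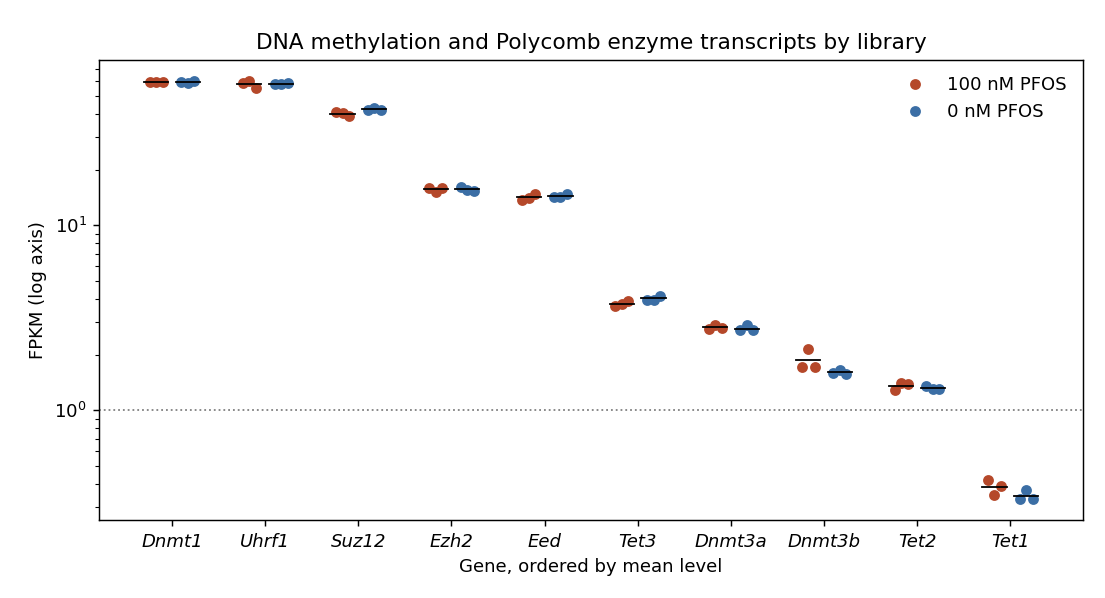
FPKM (vertical log axis) of the 10 genes in each library, ordered from left to right by mean level, with the 3 libraries at 100 nM PFOS left of the 3 at 0 nM for each gene. Points are libraries, short bars are group means and the dotted line is the mean of 1 FPKM needed for the test. Dnmt1 and Uhrf1 lie near 60 FPKM in both groups and Tet1 below 0.5 FPKM.

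Of the TET genes, Tet3 carried most of the signal. Tet3 (ENSMUSG00000034832, chromosome 6, 83362373 to 83459084, minus strand) had 3.68, 3.74 and 3.88 FPKM at 100 nM PFOS, against 3.97, 3.93 and 4.17 FPKM at 0 nM. All 3 values at 100 nM lay below all 3 at 0 nM. The mean of 3.77 ± 0.103 FPKM at 100 nM was 0.936 times the mean of 4.02 ± 0.129 FPKM at 0 nM (SD, n = 3 each), a difference of -0.08 with a 95% interval of -0.17 to 0.02 (limma adjusted p = 0.348).

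Tet2 (ENSMUSG00000040943, chromosome 3, 133463679 to 133545139, minus strand) had 1.29, 1.40 and 1.38 FPKM at 100 nM PFOS, against 1.36, 1.31 and 1.30 FPKM at 0 nM, with a difference of 0.02 and a 95% interval of -0.12 to 0.16 (limma adjusted p = 0.881). Tet1 (ENSMUSG00000047146, chromosome 10, 62804570 to 62908996, minus strand), the paralogue best known from embryonic stem cells, had 0.42, 0.35 and 0.39 FPKM at 100 nM, against 0.33, 0.37 and 0.33 FPKM at 0 nM. It stayed below the filter, and its groups overlapped (exact two-sided permutation p = 0.2 over the 6 libraries, where 0.1 is the smallest that 3 against 3 allows). Tet3 made up 68.1% to 68.7% of the summed TET level at 100 nM and 70.1% to 71.9% at 0 nM, and the sum was 5.39 to 5.65 FPKM at 100 nM and 5.61 to 5.80 FPKM at 0 nM.

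Among the PRC2 core genes, Suz12 had the smallest p-value of all members. Suz12 (ENSMUSG00000017548, chromosome 11, 79993106 to 80034123, plus strand) had 40.90, 40.67 and 38.78 FPKM at 100 nM PFOS, against 42.11, 43.35 and 42.23 FPKM at 0 nM. The values at 100 nM were all below those at 0 nM, and replicate 3 at 100 nM was the lowest. The mean was 40.1 ± 1.16 FPKM at 100 nM and 42.6 ± 0.684 FPKM at 0 nM (SD, n = 3 each), with a difference of -0.08 and a 95% interval of -0.15 to -0.02. Its unadjusted p of 0.0216 ranked 1617 of 11741 in limma, and the adjusted p was 0.157. Without replicate 3 at 100 nM the difference was -0.06 (limma adjusted p = 0.253).

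Ezh2 (ENSMUSG00000029687, chromosome 6, 47530139 to 47595341, minus strand) had 15.95, 15.19 and 16.01 FPKM at 100 nM PFOS, against 16.05, 15.43 and 15.40 FPKM at 0 nM, with a difference of 0.01 and a 95% interval of -0.07 to 0.08 (limma adjusted p = 0.923). Eed (ENSMUSG00000030619, chromosome 7, 89954654 to 89980983, minus strand) had 13.78, 14.11 and 14.72 FPKM at 100 nM, against 14.16, 14.28 and 14.72 FPKM at 0 nM, with a difference of -0.02 and a 95% interval of -0.10 to 0.06 (limma adjusted p = 0.811). For both genes the groups overlapped over most of their range. Per length, Suz12 stood at 2.42 to 2.68 times Ezh2 at 100 nM and at 2.62 to 2.81 times Ezh2 at 0 nM, and Ezh2 stood at 3.67 to 4.02 times its paralogue Ezh1 at 100 nM and at 3.90 to 4.18 times Ezh1 at 0 nM.

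**Figure D3:**
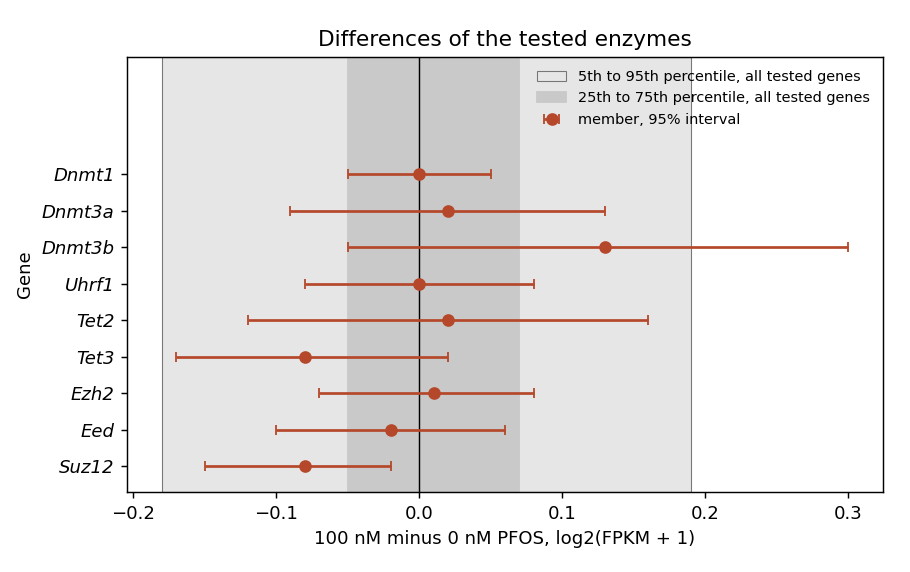
Difference, 100 nM minus 0 nM PFOS, in log2(FPKM + 1) (horizontal axis) for the 9 tested genes, with points for the limma estimate and bars for its 95% interval. The dark band spans the 25th to 75th percentile of all tested genes, -0.05 to 0.07, and the light band the 5th to 95th, -0.18 to 0.19. The bars of 8 genes cross 0, and that of Suz12 runs from -0.15 to -0.02.

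The order of the levels was Dnmt1, Uhrf1, Suz12, Ezh2, Eed, Tet3, Dnmt3a, Dnmt3b, Tet2 and Tet1 in both groups. Values of Dnmt1 and Uhrf1 overlapped at 100 nM and were narrowly separated at 0 nM, with a lowest Dnmt1 value of 58.91 FPKM above a highest Uhrf1 value of 58.50 FPKM. Every other neighbouring pair was separated within each group. Genes on the opposite strand overlap 6.8% of the exonic bases of Eed (E230029C05Rik, at most 0.03 FPKM), 3.6% of those of Suz12 (Gm26563), 2.6% of those of Ezh2 (Gm26625), 0.8% of those of Dnmt3a (Dnmt3aos, at most 0.04 FPKM) and 0.3% of those of Tet2 (Gm42567). The 3 with the prefix Gm are absent from the deposited genes, so their levels are unknown. Whether the quantification used strand is not given, so reads of the overlapping genes may be mixed at those places. Earlier results of these data name stretches of chromosomes where neighbouring genes moved together. Within 2.5 Mb of the members the median difference of the tested neighbours lay between -0.04 (Dnmt3a, 13 of 18 lower at 100 nM) and 0.05 (Tet1, 18 of 28 higher). Likeness to other genes was described by Pearson's r of log2(FPKM + 1) over the 6 libraries, for the 3 members with the smallest p. Nearest to Suz12 were Cmtm3 (0.997), Afdn (0.991) and Sept7 (0.989), nearest to Tet3 were Tank (0.994), Hsph1 (0.989) and Rbck1 (0.976), and nearest to Dnmt3b were Msl2 (0.993), Dnpep (0.979) and Serinc2 (0.979). An r of at least 0.95 was reached by 87 of 6805 genes compared with Suz12, and by 21 of 6806 each for Tet3 and Dnmt3b.

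Library sums lay between 306735 and 309381 FPKM at 100 nM PFOS and between 306716 and 308830 FPKM at 0 nM. Of 15 tested epithelial markers 3 rose at 100 nM (Cdh1, Krt7 and Krt19) and 0 fell, against 4.15% of all tested genes, and all 3 had limma adjusted p of 0.0187 or less. The mean was higher at 100 nM for 13 of the 15 (median 0.15), 9 had an unadjusted p under 0.05, against 20.7% of all tested genes, and for 9 the groups did not overlap, against 26.9%. The keratin gene Krt8 was high in every library (289 to 310 FPKM at 100 nM and 289 to 291 FPKM at 0 nM). The basal keratin gene Krt5 was at 0 FPKM at 100 nM and at most 0.03 FPKM at 0 nM. Krt14, also a basal keratin gene, had 1.55, 1.2 and 1.24 FPKM at 100 nM and 0.7, 0.65 and 0.95 FPKM at 0 nM. Its groups did not overlap, and it did not pass (limma adjusted p = 0.0802). Replicate 3 at 100 nM stood apart, with a first principal component score of 19.4 against -9.57 to 0.06 in the others. The 24 leukocyte markers summed to 159.8, 315.6 and 377.8 FPKM in replicates 1 to 3 at 100 nM and to 168.8 to 211.0 FPKM at 0 nM. Of the 15 tested, 0 passed in limma, and 0 had an unadjusted p under 0.05. Their mean was higher at 100 nM for 13 of the 15 (median 0.36), and the groups did not overlap for 1 (Trac), against 26.9% of all tested genes. Of the 24, 1 (Ms4a1) was at 0 everywhere. The cytotoxic lymphocyte gene Gzmb reached 14.94 FPKM in replicate 3 at 100 nM but no more than 0.05 FPKM elsewhere. The most abundant leukocyte markers were Lyz2, at 111.49, 240.43 and 185.11 FPKM at 100 nM and 147.18, 125.88 and 103.24 FPKM at 0 nM, and Cd14, at 12.65, 8.41 and 65.16 FPKM at 100 nM and 13.01, 24.14 and 17.33 FPKM at 0 nM. Of 2 tested fibroblast, endothelial and muscle markers 0 passed and 1 had an unadjusted p under 0.05 (limma), with the collagen gene Col1a1 at 1.66, 1.87 and 1.59 FPKM at 100 nM and 1.14, 0.96 and 1.2 FPKM at 0 nM (adjusted p = 0.0515) and Pdgfra at 3.15, 3.31 and 3.81 FPKM at 100 nM and 3.62, 3.76 and 3.42 FPKM at 0 nM. The part of such cells in the member values was not tested, and in bulk RNA fewer cells of a type and less RNA per cell cannot be told apart. Without that library 0 of the 9 members passed as well.

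Genes that work beside the members were read in 12 lists, covering cofactors, readers, erasers, substrate supply, Polycomb subunits and antagonists, typical targets and the cell cycle. Of 169 tested genes in these lists 6 changed, or 3.55%, with 2 higher and 4 lower, and their median difference was 0.010. That share lies near the 4.15% of all tested genes. At an unadjusted p under 0.05 there were 29, or 17.2%, against 20.7% of all tested genes. For 41, or 24.3%, the groups did not overlap, against 26.9% of all tested genes. The count of 6 came to between 1 and 3 when any 1 of the 6 libraries was left out, and to 1 when replicate 3 of both groups was left out.

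In the list of active demethylation and repair 2 of 13 rose and 0 fell (median 0.04), against 4.15% of all tested genes changed. Gadd45b, a stress-induced gene that has been linked to DNA demethylation, had 21.55, 21.90 and 24.67 FPKM at 100 nM PFOS, against 17.87, 16.40 and 16.80 FPKM at 0 nM, with a difference of 0.39 and an SE of 0.057 (limma adjusted p = 0.0201). Ogt, the enzyme that adds N-acetylglucosamine to nuclear proteins and a partner of the TET proteins, had 28.26, 27.04 and 27.49 FPKM at 100 nM, against 25.15, 24.66 and 24.68 FPKM at 0 nM, with a difference of 0.15 and an SE of 0.025 (limma adjusted p = 0.0339). In both genes every library at 100 nM was above every library at 0 nM. Within 2.5 Mb of Gadd45b the mean of 80 of 105 tested neighbours was also higher (median 0.05), as was that of 18 of 23 around Ogt (median 0.06). Leaving out replicate 2 at 100 nM ended the Gadd45b call (limma adjusted p = 0.0644), as did leaving out replicate 1, 2 or 3 at 0 nM (0.0526, 0.0849 and 0.0785), leaving out replicate 3 of both groups (0.0778) or testing every gene above 0 in at least 1 library (0.0605). The Ogt call was lost when any 1 library was left out (0.07 to 0.116).

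The list of PRC2 accessory genes also took in Ezh1, the paralogue of the methyltransferase gene Ezh2, and the histone-binding subunit genes Rbbp4 and Rbbp7. In this list 1 of 10 fell and 0 rose (median -0.06), against 4.15% of all tested genes changed. Mtf2, a Polycomb-like subunit that brings PRC2 to CpG islands, had 7.40, 7.49 and 7.54 FPKM at 100 nM PFOS, against 8.72, 8.35 and 8.36 FPKM at 0 nM, with a difference of -0.16 and an SE of 0.030 (limma adjusted p = 0.0414). Its paralogues did not pass. Phf1 had 6.35, 6.21 and 6.16 FPKM at 100 nM against 7.05, 6.83 and 6.71 FPKM at 0 nM (limma adjusted p = 0.102), and Phf19 had 11.57, 10.85 and 10.66 FPKM at 100 nM against 11.88, 12.06 and 12.34 FPKM at 0 nM (limma adjusted p = 0.125). For all 3 Polycomb-like genes the groups did not overlap. Over the list that held for 7 of 10 genes, against 26.9% of all tested genes, and 5 of 10 had an unadjusted p under 0.05, against 20.7%. The 7 did not share a direction. Lower at 100 nM, besides the Polycomb-like genes, were Lcor and Rbbp4. Lcor had 2.34, 2.30 and 1.99 FPKM at 100 nM against 2.63, 2.63 and 2.64 FPKM at 0 nM (limma adjusted p = 0.145). Rbbp4 had 31.98, 31.79 and 31.49 FPKM at 100 nM against 32.42, 32.53 and 32.91 FPKM at 0 nM (limma adjusted p = 0.352). The histone-binding subunit gene Rbbp7 was higher at 100 nM, with 113.63, 111.26 and 110.84 FPKM against 107.11, 108.35 and 108.33 FPKM at 0 nM (limma adjusted p = 0.183), and so was Ezh1, with 3.97, 4.10 and 4.36 FPKM at 100 nM against 3.84, 3.87 and 3.95 FPKM at 0 nM (limma adjusted p = 0.39). Neither passed.

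PRC1 binds or ubiquitinates chromatin marked by Polycomb. It had 1 of 24 tested subunits lower and 0 higher (median -0.01), against 4.15% of all tested genes changed. The gene was Yaf2, a subunit of variant PRC1 complexes, with 14.83, 15.06 and 14.22 FPKM at 100 nM PFOS, against 16.56, 17.83 and 17.06 FPKM at 0 nM (difference -0.21, SE 0.037, limma adjusted p = 0.0346). The catalytic subunit gene Rnf2 had 12.53, 12.38 and 12.09 FPKM at 100 nM against 12.65, 13.47 and 13.06 FPKM at 0 nM and did not pass (limma adjusted p = 0.242). Around Yaf2 8 of 11 tested neighbours within 2.5 Mb also had a lower mean (median -0.06), as did 17 of 40 around Mtf2 (median 0.02). Calls of Mtf2 and Yaf2 were lost when any 1 library was left out, with adjusted p of 0.0846 to 0.125 for Mtf2 and 0.0721 to 0.106 for Yaf2 in limma.

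In 3 further lists no gene passed in limma, where 4.15% of all tested genes passed and 20.7% had an unadjusted p under 0.05. Of 14 tested DNA methylation cofactors 0 passed (1 at an unadjusted p under 0.05), with the replication clamp gene Pcna at 112.03, 116.65 and 108.23 FPKM at 100 nM PFOS and 115.20, 118.29 and 119.10 FPKM at 0 nM, and the co-repressor gene Trim28 at 93.14, 93.83 and 94.89 FPKM at 100 nM and 92.55, 93.22 and 92.01 FPKM at 0 nM. Of 9 methyl-CpG binding genes 0 passed (1 unadjusted), and their most abundant members were Mbd3, at 43.16 to 46.34 FPKM at 100 nM and 39.98 to 44.29 FPKM at 0 nM, and Mbd2, at 21.12 to 21.87 FPKM at 100 nM and 22.46 to 24.14 FPKM at 0 nM. Of 16 genes supplying methyl groups or alpha-ketoglutarate, the TET co-substrate, 0 passed (4 unadjusted), with Mtap at 163.61 to 174.92 FPKM at 100 nM and 166.16 to 173.98 FPKM at 0 nM and Idh2 at 49.59 to 51.76 FPKM at 100 nM and 48.94 to 51.46 FPKM at 0 nM.

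Polycomb antagonists, which include demethylases of the histone mark, had 0 of 19 past the threshold in limma (2 unadjusted). The chromatin remodelling gene Smarca4 stood at 49.83 to 50.89 FPKM at 100 nM PFOS and 50.24 to 50.91 FPKM at 0 nM, and Foxk2 at 25.44 to 26.37 FPKM at 100 nM and 24.61 to 25.92 FPKM at 0 nM. S phase and mitosis genes had 2 of 28 lower and 0 higher (median -0.02), against 4.15% of all tested genes changed. An unadjusted p under 0.05 was reached by 8, against 20.7% of all tested genes, and 13 had groups that did not overlap, against 26.9%. The 2 lower genes were the cyclin gene Ccne1, at 4.81, 4.74 and 5.47 FPKM at 100 nM against 7.34, 6.91 and 6.52 FPKM at 0 nM (limma adjusted p = 0.024), and the helicase gene Mcm4, at 55.43, 55.00 and 53.54 FPKM at 100 nM against 62.43, 62.74 and 62.13 FPKM at 0 nM (limma adjusted p = 0.00817). Mcm4 lies in a stretch where 40 of 44 tested neighbours within 2.5 Mb were lower at 100 nM (median -0.15), and its call was lost without replicate 3 of both groups (limma adjusted p = 0.0646). Around Ccne1 4 of 10 tested neighbours were lower (median 0.00). The Ccne1 call was lost when any 1 library other than replicate 3 at 100 nM was left out, with adjusted p of 0.0582 to 0.0924 in limma.

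**Figure D4:**
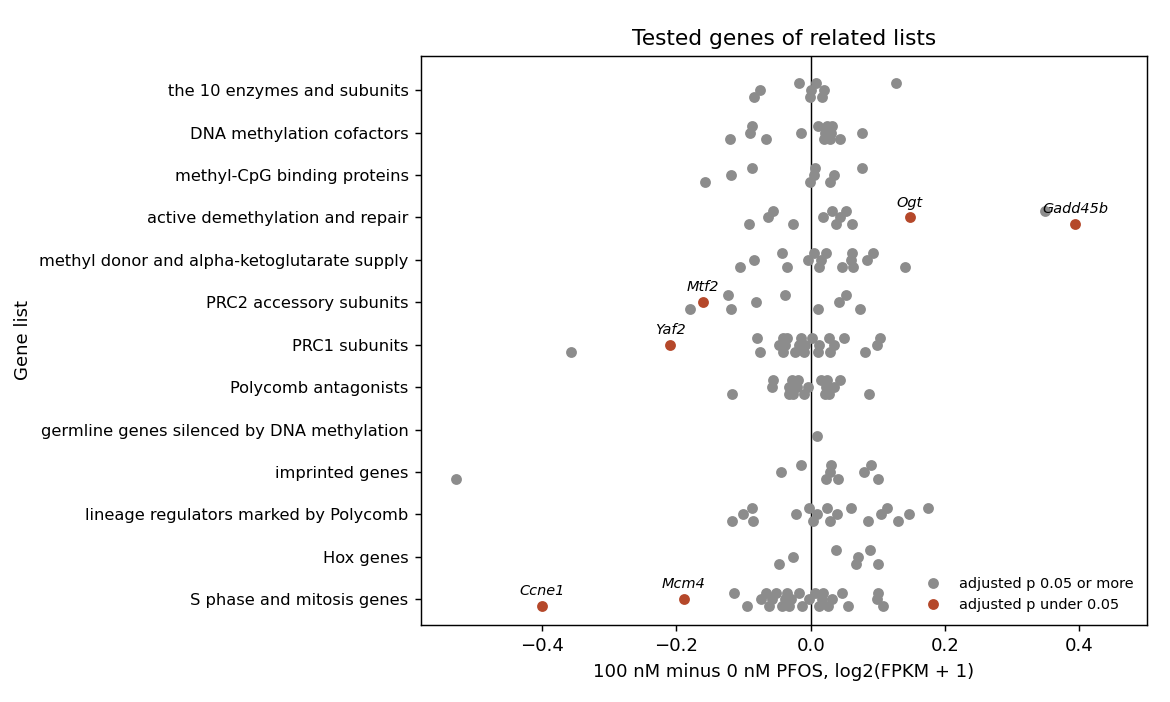
Difference, 100 nM minus 0 nM PFOS, in log2(FPKM + 1) (horizontal axis) for the tested members, in the top row, and the tested genes of the 12 related lists below it. Each point is a gene, coloured and named where the limma adjusted p was under 0.05 and spread vertically only for legibility. The 6 named genes are Gadd45b and Ogt above 0 and Mtf2, Yaf2, Mcm4 and Ccne1 below 0, and no member is among them.

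Genes that DNA methylation or Polycomb commonly silences were mostly low in both groups, but most of all genes also stayed below 1 FPKM. Of the 135 such target genes found, 42 reached 1 FPKM in at least 1 library, against 12489 of all 28418 genes. Among 13 germline genes found of 30 listed, 11 stayed below 1 FPKM in every library. So did 21 of 33 imprinted genes, 35 of 54 lineage regulators and 26 of 35 Hox genes. Among those tested, 0 of 1 germline, 0 of 10 imprinted, 0 of 18 lineage and 0 of 7 Hox genes passed in limma, with 0, 1, 3 and 0 at an unadjusted p under 0.05. Over all tested genes 4.15% passed and 20.7% had an unadjusted p under 0.05. Expressed examples were the meiotic gene Sycp1 (1.04 to 1.23 FPKM at 100 nM PFOS and 0.92 to 1.26 FPKM at 0 nM), the imprinted genes Gnas (60.99 to 65.12 FPKM at 100 nM and 64.87 to 66.56 FPKM at 0 nM) and Phlda2 (17.45 to 17.76 FPKM at 100 nM and 16.43 to 18.36 FPKM at 0 nM), and the Hox genes Hoxa5 (34.59 to 35.87 FPKM at 100 nM and 34.02 to 34.64 FPKM at 0 nM) and Hoxa6 (8.81 to 9.80 FPKM at 100 nM and 8.26 to 9.32 FPKM at 0 nM). Among lineage regulators the highest were Wnt7b, at 30.86 to 33.54 FPKM at 100 nM and 31.27 to 33.16 FPKM at 0 nM, and Irx2, at 20.06 to 21.43 FPKM at 100 nM and 21.71 to 22.59 FPKM at 0 nM (limma adjusted p = 0.144). The germline gene Mov10l1 stayed below the filter, at 0.34 to 0.45 FPKM at 100 nM and 0.44 to 0.61 FPKM at 0 nM.

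In a few of these target genes 1 library stood far from the other 5. A gene was counted, by a rule chosen after the values were seen, where its highest library reached 1 FPKM and 1 library lay at least 5-fold below or above each of the other 5 (for those below, with the other 5 at 0.5 FPKM or more). Of 42 target genes reaching 1 FPKM, 3 were set apart by a low and 2 by a high value, all 5 in replicate 3 at 100 nM PFOS, and 0 in any other library. The 2 with a high value, Rhox5 and Dcn, reached 1 FPKM only in replicate 3 at 100 nM. They were thus among the 42 only through the library in which they were counted as high. Over all 12489 genes reaching 1 FPKM that library was low for 32 and high for 48, while each of the other 5 was low for 2 to 5 and high for 0 to 8.

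The imprinted zinc finger gene Peg3 had 1.62, 1.86 and 0.01 FPKM in replicates 1 to 3 at 100 nM PFOS, against 1.75, 1.63 and 2.14 FPKM at 0 nM. Pax8, a lineage transcription factor, had 1.01, 1.23 and 0.01 FPKM at 100 nM, against 1.13, 0.91 and 1.21 FPKM at 0 nM. Hoxb9 had 1.23, 1.33 and 0.10 FPKM at 100 nM, against 1.15, 0.94 and 1.16 FPKM at 0 nM. These 3 genes were at 0.10 FPKM or less in that library and between 0.91 and 2.14 FPKM in the other 5. Outside the rule, Hoxb2, Hoxb3, Hoxb4, Hoxb5, Hoxb6, Hoxb7 and Hoxb8 were also lowest in that library, at 0 to 0.22 FPKM. Their values elsewhere were low too, at 1.09 FPKM or less, and Hoxb13 was at most 0.03 FPKM in any library. The reproductive homeobox gene Rhox5 had 0.15, 0.26 and 1.35 FPKM at 100 nM and was listed at 0 in all 3 libraries at 0 nM, so its groups did not overlap, but its mean was below the filter and limma did not test it. Dcn, imprinted in placenta and also a fibroblast marker, had 0.00, 0.00 and 2.26 FPKM at 100 nM, against 0.03, 0.05 and 0.00 FPKM at 0 nM. In the same library Dnmt1 (59.38 FPKM), Dnmt3a (2.77), Tet2 (1.38), Ezh2 (16.01) and Eed (14.72) lay within or at the edge of the range of the other 5, while Uhrf1 (55.37) and Suz12 (38.78) were the lowest of the 6.

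**Figure D5:**
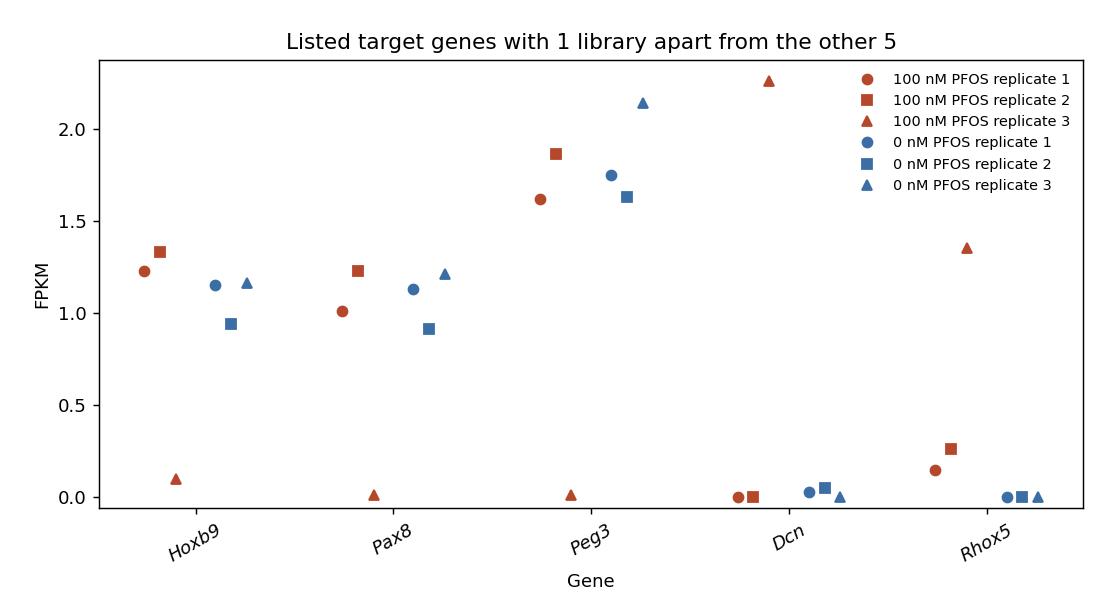
FPKM (vertical axis) in each library for the 5 target genes with 1 library at least 5-fold apart, with the 3 libraries at 100 nM PFOS left of the 3 at 0 nM and a marker shape for each replicate number. Replicate 3 at 100 nM (triangles) is at 0.10 FPKM or less for Hoxb9, Pax8 and Peg3, and at 2.26 FPKM for Dcn and 1.35 FPKM for Rhox5.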

How the data were processed

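Poly(A) RNA of 4T1 cells was sequenced in 6 libraries, and the authors deposited FPKM values per gene, written to 2 decimals, per the file headers. Strand was kept with dUTP and reads were paired, per the labels' protocols. The submitters' processing notes list the tools fastp, HISAT2 and StringTie with the builds mm10 and GRCh38. Tool versions, the role of GRCh38 and the use of strand in quantification: not given in the sources used here. The identifiers are mouse, and 28350 of 28418 were matched to symbols in GENCODE M21 (GRCm38). Coordinates are those of the deposited tables.

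The files hold no read counts. A search for whole-read steps among low values took, for each library, the best of many assumed library sizes. It put 27.5% to 30.1% of the values within 0.1 of a whole multiple. Chance gives 20% at 1 fixed size, and its level for the best of many was not computed. Depth is therefore unknown, and precision is known only from the replicates. Limma 3.58.1 (R 4.3.3), with a trend, was fitted to log2(FPKM + 1) of every gene whose 6-library mean reached 1 FPKM, 100 nM minus 0 nM, two-sided. P-values were Benjamini-Hochberg adjusted over all tested genes and called under 0.05. The fit was tested on simulated data. Words of 31 bases shared with transcripts of other genes were counted for each member.

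The members, lists and tests were chosen with earlier results of these data known. Named genes are the members, up to 4 changed genes of each list or, where none changed, its 2 most abundant, and the 3 genes most like each of the 3 members with the smallest p. Phf1, Phf19, Lcor, Rbbp4, Rbbp7, Ezh1, Rnf2, Krt8, Krt5, Krt14, Gzmb, Ms4a1 and Trac were named outside this rule, after their values were seen. So were the copies and overlapping genes, the 5 genes with 1 library apart and the Hoxb genes named beside them. The lists of fibroblast, endothelial and muscle markers, of leukocyte markers and of epithelial markers served as checks. Alternatives changed the pseudocount, the scaling, the filter, the gene set, the moderation, the libraries kept or the replicate block. Python 3.11.15 was used for the rest.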

Additional observations from a re-analysis of the deposited data

How the results depend on the processing

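No member was called in any alternative in limma (17, or 16 for Dnmt3a, Dnmt3b, Tet2 and Tet3, which a 5 FPKM filter drops), and the smallest adjusted p of a member over them was 0.128 (Suz12, under that filter). The differences ranged from 0.06 to 0.19 for Dnmt3b, -0.09 to -0.05 for Tet3 and -0.10 to -0.06 for Suz12, and the other tested members stayed between -0.04 and 0.04. Differences fell on both sides of 0 among the alternatives for Dnmt1 (-0.01 to 0.02), Uhrf1 (-0.03 to 0.04) and Ezh2 (-0.01 to 0.03). Their main differences lie within 0.01 of 0.

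The count of changed genes, 487 of all tested and 6 of the related lists, moved by over 1.5 times under 5 kinds of alternative. It was 204 and 1 with all genes above 0 in at least 1 library, where more genes share the adjustment, 294 and 3 without a trend, 91 and 1 with replicate 3 of both groups left out, and 122 to 290 and 1 to 3 with any 1 library left out. With the replicate number as a block it was 58 and 0, with fewer residual degrees of freedom, so that all 6 list calls, Mcm4 (limma adjusted p = 0.0661) and Gadd45b (0.083) among them, were lost. Deviations of same-numbered libraries correlated at -0.05 to 0.01 and those of other pairs at -0.03 to 0.07. Not every library correlated best with its own number. Values this near 0 cannot show whether same-numbered libraries were handled together. Scaling by median-of-ratios moved the median of all genes by -0.006. The depth behind the values is unknown.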
